A study of Arabidopsis thaliana with 10 samples.

Results

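Cytochrome P450 genes are described here across leaf RNA libraries of Arabidopsis thaliana. Members are the gene rows whose name is CYP followed by digits, letters and digits, such as CYP709B2. By that pattern 219 names qualified, 7 were left out by the same rule (6 glucosinolate enzymes, among them CYP79B2, CYP83A1 and CYP81F2, and the chlorophyll breakdown gene CYP89A9), and no name stood on more than 1 row, which left 212 members of 33028 rows. The gene table used for names pairs all 212 with protein-coding loci, and their numbers fall into 39 CYP families. P450 enzymes listed under other names (AOS, PAD3, CPD, GA3, LUT1 and others) are not members and are given only where a pathway needs them.

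Cytochromes P450 are haem enzymes that insert an oxygen atom into small molecules, with electrons passed on by a P450 reductase and, in some reactions, by cytochrome b5. In plants they build and break down hormones, make sterols, carotenoids, cutin and suberin, and produce defence compounds such as camalexin, indole glucosinolates and volatile terpenes. Enzymes that share a family number are related in sequence and often lie side by side in the genome, but they do not always share a substrate.

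The study used leaf positions 5 and 6 of Col-0 plants aged 4 weeks, grown at 22 °C in 16 h light. Wild type was compared with plants overexpressing RanT27N, a form of the nuclear transport GTPase Ran held with GDP, or RanG22V, a form held with GTP; neither the promoter nor the number of independent lines is stated in the labels. Leaves were detached and taken at once (D0) or after 3 days in darkness (D3). The 5 groups of 2 libraries each were labelled Col D0 (wild type, untreated), RanT27N D0 and RanG22V D0 (each line, untreated), and RanT27N D3 and RanG22V D3 (each line, dark). Nothing in the labels ties the 2 libraries of a group to separate plants; p-values therefore cover the spread between libraries, which may be technical.

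The sample name inside the file went against the label in 8 of the 10 libraries. The pair labelled RanT27N D0 carried the header RanG22V D0, and the pair labelled RanG22V D0 carried the header RanG22V D3. Under the label RanT27N D3 the header read RanT27N D0, and under the label RanG22V D3 it read RanT27N D3. Groups below follow the labels; read by header, the labelled RanG22V against RanT27N comparisons are darkness against light, within the RanG22V line (D0 labels) or within the RanT27N line (D3 labels). SAG12, a protease gene of ageing leaves, had 508 and 756 CPM in the pair labelled RanG22V D0 and 139 and 439 in the pair labelled RanG22V D3, but at most 1.22 in the other 6 libraries, the wild type included. ASN1, an asparagine synthetase gene induced in darkness, had 840 CPM or more in both libraries labelled RanG22V D0 (untreated), 10.8 and 42.7 in those labelled RanG22V D3, and at most 1.35 elsewhere. RAN1, a Ran gene, had 256 to 437 CPM in Col D0, 560 to 913 in the transgenic pairs labelled D0 and 1086 to 1519 in those labelled D3. By header the pairs labelled D0 are the RanG22V line and those labelled D3 the RanT27N line. RAN3 had 46.4 to 57.3 CPM in Col D0 and the transgenic pairs labelled D0, and 103 to 124 in those labelled D3. RAN2 had 51.2 and 53.5 CPM in Col D0, and 85.0 to 160 and 117 to 254 in these pairs. Which Ran gene the transgene came from is not stated in the labels.

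Libraries held 14187505 to 24496672 counts. Levels are CPM, each count divided by its library size as scaled by edgeR, with no correction for gene length, so they are compared between libraries and not between genes. Of the 212 members, 119 passed the filter on low counts and were tested; 38 had no count in any library and the other 55 never exceeded 1.5 CPM. Of the 21475 genes tested, a gene was called where the adjusted p of edgeR's quasi-likelihood test, corrected over all of them, was below 0.05. Of the mesophyll markers, RBCS1A and LHCB2.1 stayed at 10.7 CPM or more in every library, and CA1 ranged from 0.856 to 1053 CPM. The summed root, seed and pollen markers never exceeded 0.814 CPM.

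P450 transcripts took up more of the pair labelled RanG22V D0 than of any other. Their summed level was 4589 and 4692 CPM in that pair and 1951 to 2838 CPM in the other 8 libraries. A single gene, CYP91A2, made up 35.7% and 40.0% of the sum there; without it the sums were 2952 and 2817 CPM, against 1925 to 2827 in the other libraries. The families also shifted. Summed over the CYP71 family, the level was 1163 and 1138 CPM under the label RanG22V D0, 738 and 755 under RanG22V D3 and 309 to 565 in the other 6 libraries, whereas the CYP86 family stood at 17.8 to 48.2 CPM in the 4 libraries labelled RanG22V and 158 to 259 elsewhere.

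**Figure D1:**
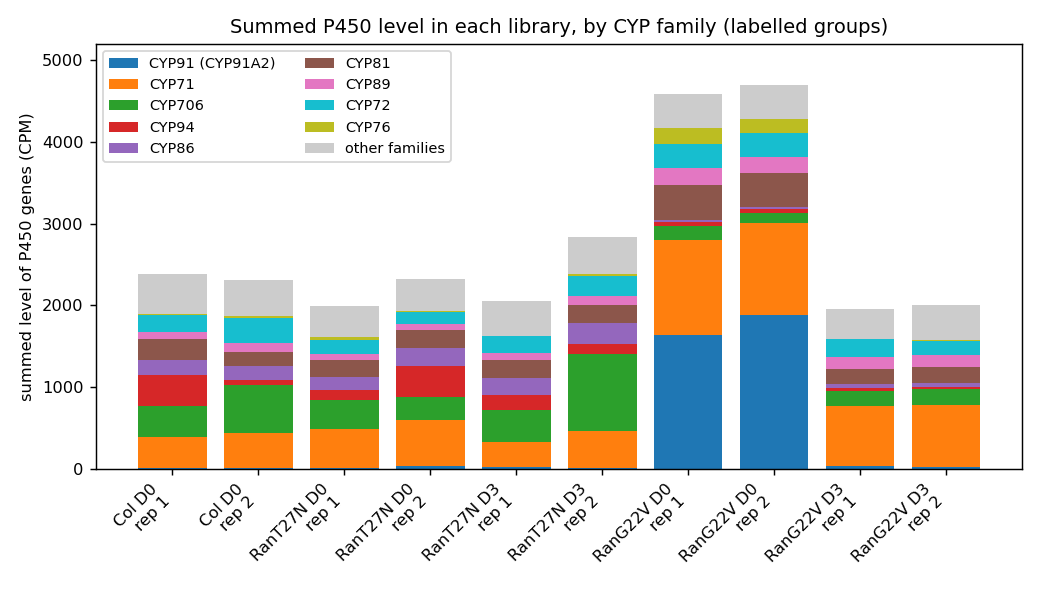
Summed level of P450 members in each library in CPM, with the bar split by CYP family; each bar is 1 library under its label. The bars of both libraries labelled RanG22V D0 reach 4589 and 4692 CPM, with CYP91A2 alone at 1637 and 1875 CPM, and the other 8 libraries stay at 2838 CPM or less.

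The comparison with most calls set the 4 libraries labelled RanG22V against the 4 labelled RanT27N over both days. Of the 119 tested members, 30 were higher and 20 lower, which is 42% against a background of 27.6% of all genes tested (11.9% higher and 15.7% lower). The median log2 fold change was 0.27 for the tested members and 0.00 for all genes. Of the 50 calls, 32 held when each library in turn was left out and under every other setting tried. Here and against wild type, a gene without an adjusted p in a setting other than a left-out library was counted as held there. In these bulk leaves, fewer cells of a type and less RNA per cell cannot be told apart.

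By family, the CYP71 genes that were called mostly went up, with 11 of 30 tested members higher and 2 lower. In CYP705, the second largest family, 14 of 24 members were not tested, 8 of them at 0 in every library, and 2 of the 10 tested were higher. CYP94 had 3 lower and 1 higher of 4 tested, CYP706 had 3 lower and 1 higher of 5, and CYP76 had 3 higher and 2 lower of 5. None of the 6 CYP702 members was tested. Counts over both days by family or by list, here and below, stand against the same 27.6% of all genes. They were not tested against that share.

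**Figure D2:**
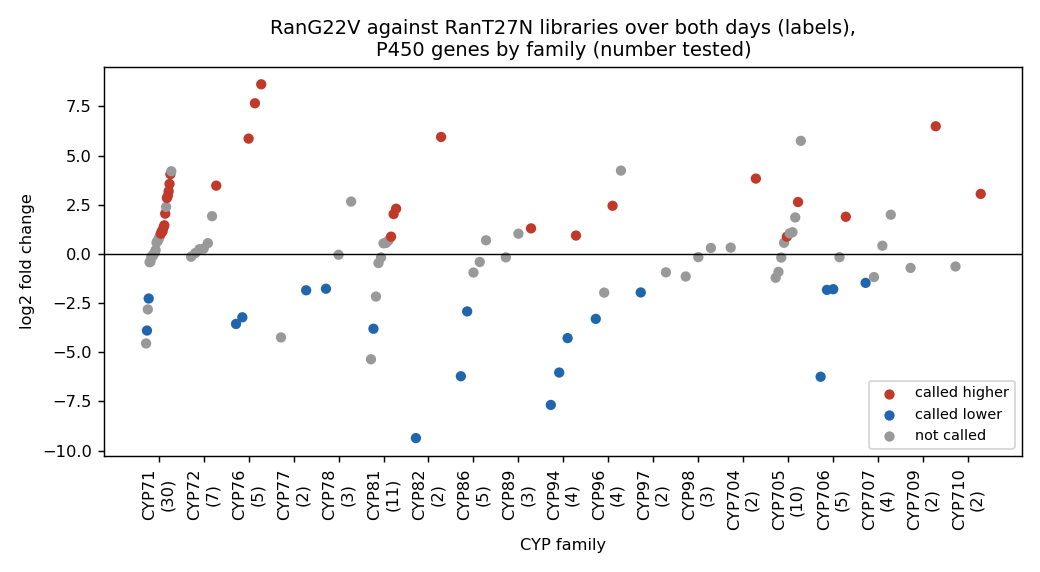
Log2 fold change of each tested P450 member between the libraries labelled RanG22V and those labelled RanT27N over both days, by CYP family for families with 2 or more tested members; each point is 1 gene and the colour gives the call. CYP71 points are mostly above 0 and CYP94 points mostly below, while CYP76 and CYP82 hold calls in both directions; where a pair is at 0 the fitted value depends on the prior count.

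Among hormone enzymes, the 3 that oxidise the active jasmonate, jasmonoyl-isoleucine, were all lower in the libraries labelled RanG22V. CYP94C1, which oxidises the hormone to its carboxylated form, was at 128 and 8.95 CPM in Col D0, 33.1 and 22.8 in RanT27N D0, 48.9 and 48.3 in RanT27N D3, 0.821 and 1.82 in RanG22V D0, and 0.528 and 0 in RanG22V D3. All 4 libraries labelled RanG22V lay below all 6 others, and the difference between the labelled lines over both days was -6.03 ± 0.94 (log2, SE; 4 against 4 libraries; edgeR quasi-likelihood adjusted p = 0.00161). CYP94B3, which makes the hydroxylated form, was at 199 and 27 CPM in Col D0, 67.9 and 311 in RanT27N D0, 97.3 and 44.9 in RanT27N D3, 13.5 and 4.79 in RanG22V D0, and 3.37 and 4.42 in RanG22V D3. Here too the RanG22V labels held the 4 lowest values, in spite of a wide spread within the other pairs (log2 difference -4.28 ± 0.75, adjusted p = 0.00293). CYP94B1, a second hydroxylase of the hormone, was at 5.50 and 26.0 CPM in RanT27N D0, 19.8 and 4.49 in RanT27N D3, 0.958 and 0.479 in RanG22V D0 and 0 in both RanG22V D3 libraries. Wild type overlapped with the RanG22V labels for this gene, with 35.4 and 0.0559 CPM, and its call (adjusted p = 0.0188) ended when any of the 4 libraries labelled RanG22V was left out (adjusted p up to 0.0679).

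Transcripts of AOS and HPL1, P450 genes of the oxylipin list that bear other names, were also lower. AOS, allene oxide synthase of the jasmonate pathway, averaged 188 ± 35.7 CPM (SD, n = 4) in the libraries labelled RanG22V and 1809.5 ± 637 in those labelled RanT27N, without overlap (adjusted p = 0.00298). HPL1, a hydroperoxide lyase, averaged 4.62 ± 2.68 and 30.0 ± 16.7 CPM (SD, n = 4), also without overlap (adjusted p = 0.00833).

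Of the 4 abscisic acid 8′-hydroxylases, which start the breakdown of that hormone, CYP707A1 alone was called over both days, lower by 2.77-fold (adjusted p = 0.0418). It lost the call without any of 5 libraries (RanT27N D0 or D3 replicate 1, RanG22V D0 replicate 1 or 2, RanG22V D3 replicate 1; adjusted p up to 0.144). CYP707A2, CYP707A3 and CYP707A4 were not called over both days, with log2 differences of 0.42, -1.17 and 2.00. Against wild type, CYP707A1 and CYP707A3 were called lower in RanG22V D0. Of 5 brassinosteroid synthesis enzymes tested, BR6OX2, which catalyses the last oxidation steps, was higher (log2 2.70 ± 0.52, adjusted p = 0.00441). CPD of the same pathway was higher by 1.89-fold, a call lost without any of 6 libraries (each RanT27N D0 and RanG22V D0 library, RanT27N D3 replicate 1 and RanG22V D3 replicate 2; adjusted p up to 0.123). GA3, the ent-kaurene oxidase of gibberellin synthesis, was higher by 3.16-fold (adjusted p = 0.00391), 1 of 4 tested on that list. KAO2 of that list was not called over both days, but was called lower in RanG22V D0 against wild type. CYP72C1 and BAS1, which inactivate brassinosteroids, and the 2 members on the strigolactone list, CYP711A1 (MAX1) and CYP722A1, were not called, and CYP735A1 and CYP735A2, the cytokinin hydroxylases that make trans-zeatin, had too few counts to test.

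CYP86A2, a fatty acid hydroxylase of cutin synthesis, had the smallest adjusted p of the 50 calls. Its level was 175 and 169 CPM in Col D0, 153 and 209 in RanT27N D0, 203 and 250 in RanT27N D3, 21.1 and 12.8 in RanG22V D0, and 47.0 and 37.5 in RanG22V D3. No library labelled RanG22V came within 3-fold of a library with another label, and the log2 difference between the labelled lines was -2.92 ± 0.26 (adjusted p = 0.000128). CYP77A4, a fatty acid epoxidase, was lower by 3.60-fold (2.01 ± 0.784 against 7.01 ± 0.754 CPM, SD, n = 4; adjusted p = 0.00456). In all, 12 genes on the list of cutin, suberin, wax and sporopollenin enzymes were measured and 7 tested; 3 were lower and 1 higher. The other 2 calls were of CYP86A1, of root suberin, which had at most 12 counts (0.673 CPM) in any library, and CYP704B1, of pollen sporopollenin, which had 34 and 89 counts (2.24 and 4.23 CPM) in RanG22V D3 and at most 18 counts elsewhere. Both calls ended when single libraries were left out (8 of the 8 compared for CYP86A1, adjusted p up to 0.0924; 6 for CYP704B1, up to 0.137: both RanT27N D0, both RanG22V D3, RanG22V D0 replicate 2 and RanT27N D3 replicate 1). The epidermis markers CER6, ATML1 and FDH were each lower in every library labelled RanG22V than in any other. They summed to 143 to 207 CPM under the label RanG22V D0, 580 to 614 under RanG22V D3 and 679 to 1241 elsewhere, mostly from CER6. ATML1 was at 16.4 to 22.3 CPM under both RanG22V labels and 33.0 to 73.9 elsewhere. The part of these markers in the result was not tested.

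Of 3 carotenoid hydroxylases tested, 2 were lower over both days. CYP97A3, which hydroxylates the carotenoid ring on the way to lutein, stood at 21.1 and 17 CPM in Col D0, 15.9 and 10.5 in RanT27N D0, 22.2 and 10.5 in RanT27N D3, 3.56 and 4.93 in RanG22V D0, and 2.57 and 4.14 in RanG22V D3. The RanG22V labels did not overlap with the others (log2 -1.96 ± 0.32, adjusted p = 0.00219). LUT1 of the same pathway was lower by 3.37-fold (adjusted p = 0.00438), and CYP97B3 did not pass the test (log2 -0.93 ± 0.32, adjusted p = 0.0548). Against wild type, all 3 of these genes were called lower in RanG22V D0. Of the mesophyll markers, RBCS1A and CA1 were also lower in every library labelled RanG22V (RBCS1A at 78.3 to 510 CPM against 2581 to 5356), and LHCB2.1 was not. Its level was 908 and 1331 CPM under the label RanG22V D3, and 151.7 and 79.0 under RanG22V D0. In the other 6 libraries LHCB2.1 followed the replicate number, at 10.7 to 26.05 CPM in replicate 1 and 739 to 1166 in replicate 2. The cause of that split was not tested. The 3 mesophyll markers summed to 159 and 366 CPM under the label RanG22V D0, 1419 and 1668 under RanG22V D3 and 3829 to 6368 elsewhere, and their part in the result was not tested. Of the phloem markers, SUC2 was at 19.3 to 31.1 CPM under the RanG22V labels against 172 to 365, while APL and SWEET11 overlapped between labels; the 3 summed to 112 to 156 CPM against 264 to 508. Summed guard cell markers were at 14.3 to 24.2 CPM in all 10 libraries.

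Sterol enzymes were mostly not called. CYP51G1, the sterol 14-demethylase, ranged from 49.4 to 93.2 CPM over all 10 libraries (adjusted p = 0.105), and CYP710A2 was not called over both days either. Against wild type, CYP710A2 was called lower in RanG22V D0. CYP710A1, the C-22 sterol desaturase that makes stigmasterol, was at 71.5 and 47.3 CPM under the label RanG22V D0, 7.72 and 9.70 under RanG22V D3 and at most 5.84 in the 6 others; its call (8.31-fold higher, adjusted p = 0.0267) was lost without either RanT27N D0 or RanG22V D3 library, RanG22V D0 replicate 1 or RanT27N D3 replicate 2 (adjusted p up to 0.0866).

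Defence enzymes went both ways. CYP71B6, which makes indole-3-carboxylic acid, was higher by 2.53-fold (adjusted p = 0.00747). CYP71A12 and CYP71A13 both turn indole acetaldoxime into the nitrile that leads to camalexin, and they were called in opposite directions: CYP71A12 was higher by 7.20-fold (adjusted p = 0.0124) and CYP71A13 lower by 4.81-fold (adjusted p = 0.0238). CYP71A12 had 25.6 and 46.9 CPM in RanG22V D0 and at most 9.24 elsewhere, while CYP71A13 had 22.5 and 147 CPM in RanT27N D0 and at most 11.6 elsewhere. These are close copies whose reads the counting could have split, and the CYP71A13 call ended without any of 6 libraries (RanT27N D0 replicate 2, RanT27N D3 replicate 1 or any labelled RanG22V; adjusted p up to 0.0904). PAD3, the last enzyme of camalexin synthesis, was at 53.2 and 97.6 CPM in RanT27N D0 and 10.2 to 30.1 in the other 8 libraries, and did not pass the test over both days (adjusted p = 0.0547). It was lower in RanG22V D0 than in RanT27N D0 (2.95-fold, adjusted p = 0.0248) and in RanT27N D3 than in RanT27N D0 (5.62-fold, adjusted p = 0.0473), and both calls ended without RanT27N D0 replicate 2 or either RanG22V D0 library, the second also without any library labelled D3 (adjusted p up to 0.175 and 0.362). CYP82C2, of the 4-hydroxyindole carbonyl nitrile pathway, was called higher on 4.20 and 15.9 CPM in RanG22V D0 and at most 0.666 elsewhere, a call lost without RanG22V D0 replicate 2 and without 3 others (both RanT27N D3 libraries and RanG22V D3 replicate 2; adjusted p up to 0.247).

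Members of the CYP81F group act on indole glucosinolates, hydroxylating the indole ring. CYP91A2, listed with the synonym CYP81F1, lies next to CYP81F3 and CYP81F4, and the 3 neighbours differed in direction. CYP91A2 was higher by 13.1-fold (log2 3.71 ± 0.33, adjusted p = 0.000137), its libraries being given in the account of the days. CYP81F3 was at 4.21 to 7.88 CPM in Col D0 and both RanT27N pairs, 0 and 1.20 in RanG22V D0, and 0.462 and 0.0951 in RanG22V D3. It was lower without overlap (log2 -3.80 ± 0.84, adjusted p = 0.00862). CYP81F4 was low in the RanG22V labels, at 0 to 0.666 CPM, but ranged from 0 to 13.2 in the others and did not pass the test (adjusted p = 0.0627).

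Of the 6 listed volatile terpene enzymes, 4 were tested, with 2 higher and 2 lower. CYP82G1, which makes the homoterpene volatiles released by damaged leaves, was at 21.1 and 4.08 CPM in Col D0, 17.9 and 12.9 in RanT27N D0, 23.5 and 11.9 in RanT27N D3, 0.0456 and 0.144 in RanG22V D0, and 0 in both RanG22V D3 libraries. The gene was all but undetected under the RanG22V labels and present in every other library. It was called lower over both days (adjusted p = 0.000264), and in RanG22V D3 it was at least 104-fold lower than in RanT27N D3 when each library at 0 is set to 3 counts.

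The neighbouring linalool oxidase genes CYP76C1, CYP76C2 and CYP76C3 moved apart. CYP76C2 was at 0.299 and 0 CPM in Col D0, 0.462 and 1.03 in RanT27N D0, 0 and 0.673 in RanT27N D3, 160 and 136 in RanG22V D0, and 4.55 and 7.56 in RanG22V D3. It was highest in RanG22V D0, next in RanG22V D3 and near 0 elsewhere (log2 5.87 ± 0.69 over both days, adjusted p = 0.000415). CYP76C3 had no count in any library labelled Col or RanT27N, 8.44 and 7.13 CPM under the label RanG22V D0, and 0 and 0.381 under RanG22V D3. The gene passed the filter on low counts only through the RanG22V D0 pair, so its call adds no support beyond these levels. It was at least 26.3-fold higher over both days (adjusted p = 0.00922), but the call was lost without RanG22V D3 replicate 2 (adjusted p = 1) and with DESeq2. CYP76C1 went the other way, with 1.74 to 15.3 CPM in the RanT27N labels and 0.264 to 1.32 in the RanG22V labels (9.32-fold lower, adjusted p = 0.0213). Its RanT27N replicates differed by more than 4-fold, and the call ended without replicate 2 of either RanT27N pair or any library labelled RanG22V (adjusted p up to 0.0833).

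Other CYP76 members also split. CYP76G1 was at 14.2 and 20.7 CPM under the label RanG22V D0, and 2.57 and 2.85 under RanG22V D3, with 2 counts in 1 RanT27N D0 library and none in the other 5. The gene passed the filter on low counts only through libraries labelled RanG22V, so its call adds no support beyond these levels. Its summed level was 435-fold higher under the RanG22V labels than under the RanT27N labels (95% exact binomial interval 120 to 3599, counting error only; adjusted p = 0.000268). CYP76C6 was lower by 11.8-fold (0.572 ± 0.385 against 11.2 ± 13.6 CPM, SD, n = 4; adjusted p = 0.00505).

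**Figure D3:**
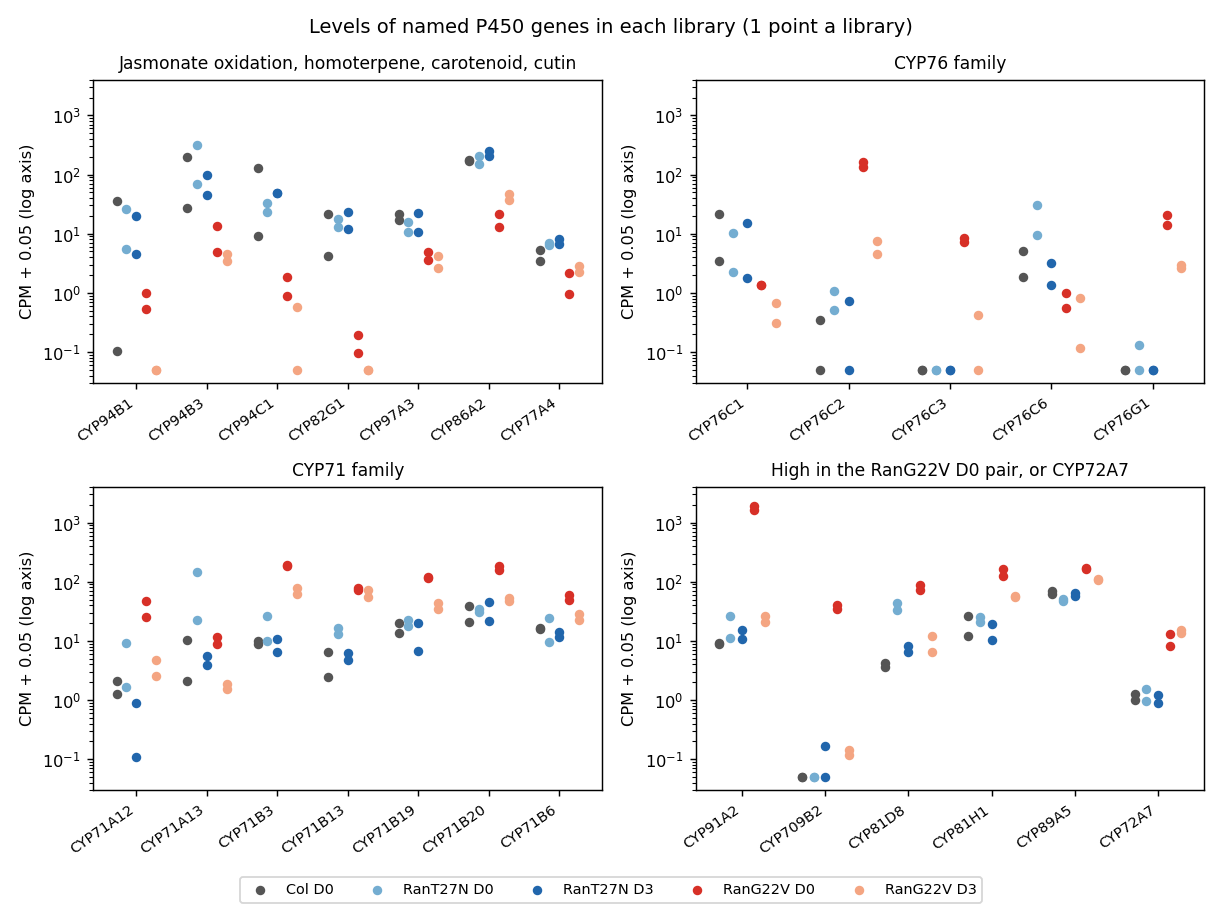
CPM of named P450 genes in each library (log axis, 0.05 added so that 0 can be shown), with 1 point per library and the colour giving the labelled group. In the jasmonate, homoterpene, carotenoid and cutin panel the points of the RanG22V labels lie lowest apart from CYP94B1, for which 1 wild-type library reads 0.0559 CPM; CYP76C2, CYP76C3, CYP76G1, CYP91A2 and CYP709B2 are highest in RanG22V D0.

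In the phenylpropanoid pathway, CYP98A3 of lignin synthesis was at 34.2 to 97.2 CPM throughout (adjusted p = 0.693). Of 6 tested on that list, TT7, the flavonoid 3′-hydroxylase, was called lower (14.7-fold, adjusted p = 0.0385), a call lost without replicate 1 of either RanT27N pair, RanG22V D0 replicate 1 or either RanG22V D3 library (adjusted p up to 0.137). CYP78A6, of a family that promotes organ growth, was lower by 3.41-fold (adjusted p = 0.0473), with values of 3.08 CPM or less in these 8 libraries. It lost the call without any of them but RanG22V D3 replicate 1, and without Col D0 replicate 2 (adjusted p up to 0.142). The triterpene list and CYP82C4 of the coumarin pathway had no member tested.

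No role is given here for most of the CYP71 genes. In the largest run of P450 neighbours, holding CYP71B17, CYP71B19 to CYP71B24 and CYP71B3, 4 of 8 tested members were higher and none lower. CYP71B3, CYP71B19 and CYP71B20 held without each library, and CYP71B23 lost its call without RanT27N D3 replicate 1 or RanG22V D3 replicate 2 (adjusted p up to 0.0625). CYP71B3 was at 9.98 and 8.67 CPM in Col D0, 26.7 and 10.1 in RanT27N D0, 6.56 and 10.7 in RanT27N D3, 189 and 184 in RanG22V D0, and 78.2 and 63.0 in RanG22V D3. All 4 values under the RanG22V labels exceeded the other 6 (log2 3.19 ± 0.33, adjusted p = 0.00026). In a second run CYP71B12 and CYP71B13 were higher by 11.8-fold and 7.76-fold (adjusted p = 0.00395 and 0.000268), and CYP71B11 was not called (1.64-fold, adjusted p = 0.0765).

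Of the 4 tested members in a run of CYP81D and CYP81H genes, 3 were higher; CYP81H1 stood at 127 and 164 CPM under the label RanG22V D0, 56.6 and 55.8 under RanG22V D3 and at most 26.8 elsewhere (log2 2.30 ± 0.31, adjusted p = 0.000825). The calls of CYP81D4 and CYP81D5 ended without RanT27N D0 replicate 2, RanG22V D0 replicate 2 or RanG22V D3 replicate 1, and for CYP81D4 also without RanG22V D0 replicate 1 or RanT27N D3 replicate 1 (adjusted p up to 0.158). CYP706A1 and CYP706A2, the 2 members of another run, were both lower, by 3.54-fold and 3.46-fold (adjusted p = 0.00578 and 0.002). In all, 123 members lay in 36 runs with at most 1 other protein-coding gene between P450 neighbours. Of the 19 runs with 2 or more tested members, 4 held 2 or more calls in 1 direction and none in the other, which are the runs described above, 4 held calls in both directions, 6 held a single call and 5 none. No matching count was made for runs of other genes, so these counts have no background. An example of a run with calls in both directions is that of CYP706A4 and CYP706A6. CYP706A4 was higher by 3.71-fold (adjusted p = 0.00434). CYP706A6 was lower, with 10.6 to 45 CPM under the RanT27N labels and 0.137 to 0.858 under the RanG22V labels (log2 -6.24 ± 0.65, adjusted p = 0.00026). Reads of near-identical neighbours may be shared between them, since how reads with several matches were counted is not given in the sources used here.

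CYP72A7, whose substrate is not given here, had 0.842 to 1.46 CPM in the 6 libraries labelled Col or RanT27N, 8.21 and 12.9 in RanG22V D0, and 15.0 and 13.6 in RanG22V D3. It was higher by 11.1-fold (adjusted p = 0.000172). CYP96A4 was lower by 9.85-fold (6.37 ± 3.09 against 66.5 ± 32.6 CPM, SD, n = 4; adjusted p = 0.00148).

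Of the electron partners, 9 were tested and 2 were lower and none higher over both days, against 15.7% of all genes lower and 11.9% higher. The list was not tested against that share. CB5-C, a cytochrome b5, was at 242 and 77 CPM in Col D0, 104 and 209 in RanT27N D0, 188 and 177 in RanT27N D3, 11.7 and 13.6 in RanG22V D0, and 23.6 and 37.7 in RanG22V D3 (log2 -3.10 ± 0.41, adjusted p = 0.000682). It did not overlap between labels, while CB5-D stayed between 235 and 415 CPM in all libraries (adjusted p = 0.68). ATR2, a P450 reductase, was lower by 1.89-fold (adjusted p = 0.0299), a call lost without replicate 1 of either RanT27N pair or any library labelled RanG22V (adjusted p up to 0.113), and the other reductase, ATR1, was not called (1.46-fold, adjusted p = 0.11).

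For each day, the labelled lines were compared in sets of libraries that share none. On the D0 labels 20 members were higher and 11 lower in RanG22V (26.1% of those tested, against 17.6% of all genes, 8.25% higher and 9.36% lower), and on the D3 labels 15 were higher and 11 lower (21.8%, against 10.8% of all genes, 3.9% higher and 6.92% lower). Called on both were 16 members, 9 higher and 7 lower, and none was called in opposite directions. The share of all genes called on both was not taken, so this count has no background. The 9 were CYP71A23, CYP71B3, CYP71B12, CYP71B13, CYP71B34, CYP72A7, CYP76C2, CYP76G1 and CYP81H1, and the 7 were CYP82G1, CYP86A2, CYP94B3, CYP94C1, CYP96A4, CYP97A3 and CYP706A6. The sign of the change was the same on both in 93 of 117 members with a sign (79.5%), against 69.7% of all genes tested. Members lacking a sign on a day were left out, whereas such genes stayed in the share of all genes, so the bases differ. Calls on a single day rest on few libraries: 13 of the 31 calls on D0 labels and 5 of the 26 on D3 labels held without each library. Without either RanG22V D0 library 16 and 18 members were called on D0 labels, and 18 without RanT27N D0 replicate 1; on D3 labels 9 and 5 were called without RanG22V D3 replicate 1 and 2, and 13 without RanT27N D3 replicate 1.

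**Figure D4:**
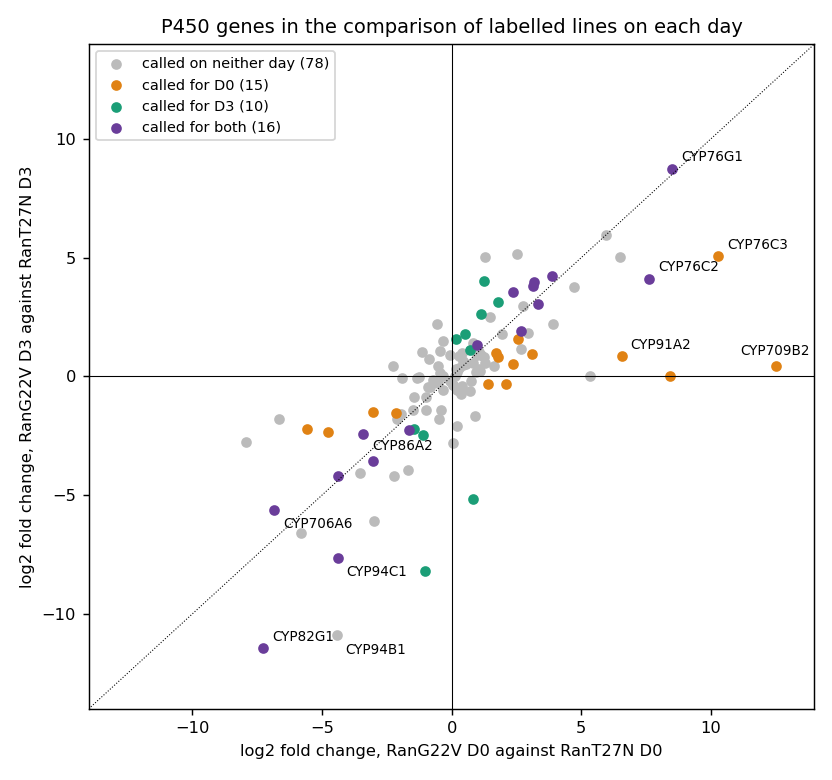
Log2 fold change of each tested P450 member, RanG22V against RanT27N, for the D0 labels (horizontal) and the D3 labels (vertical); each point is 1 gene, the colour says on which labels it was called and the dotted line marks equal change. The 16 genes called on both lie at the upper right or lower left, and CYP91A2 and CYP709B2 lie far to the right near 0 on the vertical axis; where a pair is at 0 the position depends on the prior count.

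CYP91A2 and CYP709B2 stood apart between the days. CYP91A2 was at 8.88 and 9.18 CPM in Col D0, 11.2 and 26.0 in RanT27N D0, 15.3 and 10.8 in RanT27N D3, 1637 and 1875 in RanG22V D0, and 26.4 and 21.1 in RanG22V D3. The pair labelled RanG22V D0 stood far above the other 8 libraries, which did not exceed 26.4 CPM. The difference between labelled lines was 94.3-fold on D0 labels (adjusted p = 0.000315) and 1.82-fold on D3 labels (adjusted p = 0.226), and the change from D0 to D3 in the labelled RanG22V line was -6.21 ± 0.53 (log2, SE; 2 against 2 libraries; adjusted p = 0.00233). It was the only member called in the test of the line by day interaction (1 of 119, 0.84%; against 0.21% of all genes, 0.191% higher and 0.0186% lower; log2 5.69 ± 0.64, adjusted p = 0.0161). The value is the change of the labelled RanT27N line minus that of the labelled RanG22V line, and by header the darkness change of the RanG22V line minus that of the RanT27N line. That call was lost without RanG22V D0 replicate 1, RanT27N D3 replicate 2 or either RanG22V D3 library (adjusted p up to 0.144). An unadjusted p under 0.05 was reached by 17 members, 14.3% of those tested, against 12.6% of all genes.

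CYP709B2 was detected almost only in the pair labelled RanG22V D0. It had 40.5 and 34.0 CPM there, no count in Col D0 or RanT27N D0, 2 counts in RanT27N D3 and 3 in RanG22V D3. The gene passed the filter on low counts only through that pair, so its calls add no support beyond these levels. On D0 labels it was at least 289.9-fold higher than in RanT27N D0 (adjusted p = 0.00052). From D0 to D3 in the labelled RanG22V line its summed level was 450.2-fold lower (95% exact binomial interval 154 to 2185, counting error only; adjusted p = 0.00383), a call lost without either RanG22V D3 library (adjusted p up to 0.0519). The interaction was not called for it (adjusted p = 0.0954).

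Over darkness as labelled, few members were called. In the labelled RanG22V line 3 were higher and 5 lower at D3 (6.72%, against 3.94% of all genes, 1.17% higher and 2.77% lower), and only CYP91A2 held without each library. The others called lower were CYP709B2, CYP76C2, CYP81D8 and CYP71B20, and those called higher were CYP71B34, CYP71B35 and CYP98A9. CYP98A9, which with CYP98A8 makes pollen phenolamides, was at 11.4 and 8.14 CPM under the label RanG22V D0, and 23.8 and 34.0 under RanG22V D3 (2.96-fold higher, adjusted p = 0.04). Its call, and those of CYP76C2, CYP71B34, CYP71B35 and CYP71B20, ended without any library of the 2 pairs (adjusted p up to 0.275), and CYP71B34 and CYP71B20 also lost theirs without a RanT27N D3 or RanT27N D0 library, respectively. The count was 3 without either RanG22V D0 library, 1 and 2 without RanG22V D3 replicate 1 and 2, and 13 without Col D0 replicate 1. By header this comparison sets the dark pair of the RanT27N line against the dark pair of the RanG22V line.

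In the labelled RanT27N line 1 member was lower at D3 and none higher (0.84%, against 0.345% of all genes, 0.0233% higher and 0.321% lower); by header these are the untreated pairs of both lines. That gene was CYP81D8, of a group induced by stress and foreign chemicals. Its level was 4.19 and 3.52 CPM in Col D0, 33.8 and 43.0 in RanT27N D0, 6.38 and 8.30 in RanT27N D3, 87.8 and 72.6 in RanG22V D0, and 6.33 and 11.9 in RanG22V D3. Both pairs labelled D0 of the transgenic lines, which are the RanG22V line by header, were at 33.8 CPM or more and all other libraries at 11.9 CPM or less. It was 5.23-fold lower at D3 in the labelled RanT27N line (adjusted p = 0.0411) and 8.75-fold lower in the labelled RanG22V line (adjusted p = 0.00464). The first call was lost without any of the 4 libraries compared or either RanG22V D0 library (adjusted p up to 0.273), and the second without RanG22V D3 replicate 1 (adjusted p = 0.0538).

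Against wild type, the pairs differed widely in how many P450 genes were called. By header, the pair labelled RanT27N D3 is the untreated RanT27N line and the pair labelled RanT27N D0 the untreated RanG22V line. The pair labelled RanG22V D0 is by header the dark RanG22V line. Read that way, line and darkness cannot be told apart in its comparison with wild type, and by label the same holds for RanT27N D3. RanT27N D3 gave no call by edgeR's test or by DESeq2 among 119 members (background 0%), with 5 members at an unadjusted p under 0.05 (4.2%, against 4.04% of all genes). RanT27N D0 gave 1 (0.84%, against 0.247% of all genes, 0.242% higher and 0.00466% lower), again CYP81D8, which was 9.93-fold higher (adjusted p = 0.0129), a call lost without either Col D0 library (adjusted p up to 0.0995). RanG22V D0 gave 26 higher and 18 lower (37%, against 23.2% of all genes, 11.1% higher and 12.1% lower); the counts against wild type share the Col D0 libraries with each other, and RanG22V D0 also enters the comparisons above. Of these 44, 19 held without each library and in every other setting, and 23 were called without either RanG22V D0 library. CYP709B2, CYP76G1 and CYP76C3 had no count in wild type and were at least 235-fold, 110.1-fold and 49.1-fold higher (adjusted p = 0.000396, 0.000837 and 0.0126), the last lost without either RanG22V D0 library (adjusted p up to 0.0666) and with DESeq2. CYP709B2 and CYP76C3 passed the filter on low counts only through the RanG22V D0 pair, and CYP76G1 only through libraries labelled RanG22V. Their calls here add no support beyond the levels. CYP91A2 was 194-fold higher (adjusted p = 0.000192) and CYP81D8 20.7-fold higher (adjusted p = 0.000237). The largest decreases were in CYP706A6, CYP82G1, CYP94C1 and CYP96A4, at log2 -7.10 ± 0.97, -6.98 ± 1.03, -5.70 ± 1.25 and -3.87 ± 0.73 (adjusted p = 0.00127, 0.00231, 0.0106 and 0.00556). The CYP94C1 call ended without either RanG22V D0 library (adjusted p up to 0.087), and its wild-type values were far apart, at 128 and 8.95 CPM.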

How the data were processed

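RNA was measured by sequencing in 10 leaf libraries, 5 labelled groups of 2, prepared with a Lexogen Quant-Seq kit per the labels' protocols. The authors deposited whole-number read counts for 33028 gene rows per library; Bowtie2, edgeR and the TAIR10 build are named in the submitters' processing notes, while the counter, its strand setting and its handling of reads with several matches are not stated there. Groups follow the labels, against which 8 file headers go.

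Gene rows were paired with loci by name and synonym in a TAIR10.1 gene table (32570 rows; 429 rows share a name with another), used only for names and neighbours. Ribosomal RNA rows took 8.19 to 24.5% of counts and stayed in. Totals of 14187505 to 24496672 counts set the precision; intervals and the floor of 3 counts cover counting error only.

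Counts were scaled by TMM and filtered by filterByExpr, and a quasi-likelihood model with 5 group means took in all 10 libraries (edgeR 4.0.16, limma 3.58.1, R 4.3.3), with Benjamini-Hochberg adjustment over 21475 genes. The standard error is the log2 fold change divided by the square root of F. The fit was tested on simulated data. Alternatives were DESeq2 1.42.0 size factors and Wald test, no filter, the compared libraries alone, a replicate block and each library left out. Where a lower group held 1 to 3 counts, the ratio of summed counts is given.

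Named genes are, per comparison, the 4 largest increases and 4 largest decreases among called members with at least 5 CPM in the higher group and no overlap, plus pathway genes from role lists; others named as neighbours, single calls or interaction genes were chosen after their values were seen. The members and lists were chosen with earlier results of these data known.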

Additional observations from a re-analysis of the deposited data

Results flagged for a closer look

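CYP91A2 differed between the labelled lines in its change from D0 to D3: the interaction was 5.69 ± 0.64 (log2, SE; edgeR quasi-likelihood adjusted p = 0.0161 over all genes). Under the labels RanG22V D0 and D3 it was at 1756 ± 168 and 23.8 ± 3.73 CPM (SD, n = 2). Under the labels RanT27N D0 and D3 it was at 18.6 ± 10.4 and 13.0 ± 3.19 CPM. By header, the pairs labelled RanG22V D0 and D3 are the dark pairs of the RanG22V and RanT27N lines. The pairs labelled RanT27N D0 and D3 are by header the untreated pairs of the RanG22V and RanT27N lines. Both RanG22V D0 libraries show the high level, and the call was lost without RanG22V D0 replicate 1, RanT27N D3 replicate 2 or either RanG22V D3 library (adjusted p up to 0.144).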

How the results depend on the processing

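With 2 libraries a group, calls within single pairs changed with the setting, and the cause was not tested. For RanT27N D3 against D0, 8 members were called by DESeq2, 8 with no filter and 0 with the compared libraries alone, against 1; for RanG22V D3 against D0 the counts were 22, 25 and 31, against 8; for RanT27N D0 against Col D0 they were 5, 6 and 0, against 1. The interaction gave 5 by DESeq2 and 5 with no filter, against 1. Leaving out each library gave 0 to 3, 1 to 13 and 0 to 1 calls in those 3 comparisons and 0 to 1 in the interaction. It gave 23 to 45 for RanG22V D0 against Col D0, 16 to 37 and 5 to 30 for the labelled lines on D0 and D3, 37 to 54 over both days and 0 for RanT27N D3 against Col D0. The share of all genes called is not given for these settings or for the replicate block below. The number of members tested can also differ between settings, as with no filter. These counts therefore show how calls moved with the setting and cannot be read against a background.

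Replicate numbers, which the file headers call sets, are not tied by the labels to a shared batch. Deviations of same-numbered libraries correlated at 0.124, 0.188 and 0.31 among the wild-type pair and both pairs labelled RanT27N, and at -0.0076 to 0.067 wherever a RanG22V pair entered. The replicate block gave 1, 9, 1, 47, 0, 32, 29, 55 and 1 calls in the 9 comparisons, against 1, 8, 1, 44, 0, 31, 26, 50 and 1. Of 42 named results none reversed in direction; 14 and 12 lost the call without RanG22V D0 replicate 1 and 2, 11 and 12 without RanG22V D3 replicate 1 and 2, 1 to 5 without each other library, 2 with DESeq2, 3 with the compared libraries alone and 0 with the block.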
